A study of Rattus norvegicus with 16 samples.

Results

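The aminoacyl-tRNA synthetases are the enzymes that load each tRNA with its amino acid. The family was taken as 36 named genes: 18 cytosolic enzymes, 16 mitochondrial enzymes and 2 dual enzymes that serve both compartments. Each gene was represented by the row that carries its symbol alone, or by the row with the highest mean where a symbol had several. This gave 34 members among 16702 gene symbols in white blood cells (WBC) and 33 among 16713 in CA1. All 18 cytosolic enzymes were measured in both tissues. The mitochondrial and dual enzymes numbered 16 of 18 in WBC and 15 of 18 in CA1. Iars2 and Mars2 had no row in either table, and Vars2 had none of its own in CA1, where its symbol stood only in a row shared with Gtf2h4.

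Male Sprague Dawley rats were subjected to traumatic brain injury (TBI) by fluid percussion, a pressure pulse onto the dura, or to a sham operation, and tissue was taken 1 week later, after learning tests. CA1 is the pyramidal cell field of the hippocampus, and WBC were isolated from blood. Poly-A RNA was sequenced from about 1000 ng of total RNA in 16 libraries: WBC TBI, WBC sham, CA1 TBI and CA1 sham, with 4 libraries each. All rats went through surgery and testing, so the sham groups differ from the TBI groups in the injury alone, as far as the labels say.

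Most synthetases recognise one amino acid and its tRNAs, and the charged tRNA is then used by the ribosome. Cytosolic and mitochondrial ribosomes draw on separate tRNA pools, so most amino acids have 2 nuclear genes, of which the mitochondrial one usually has a name ending in 2. Several cytosolic enzymes are held in a multisynthetase complex with the scaffold proteins Aimp1, Aimp2 and Eef1e1. Amino acid shortage and other stresses act through the kinases of eIF2 and the factor ATF4, which binds a C/EBP-ATF response element in the promoters of many cytosolic synthetase genes.

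The windows with this element are shown because, among the family's promoters at hand, they lay in cytosolic genes only. RefSeq promoters (build GRCr8, 250 bases before and 50 after the start) were at hand for 33 of the 36 members, and not for Rars, Dars and Gars. The 8-base element TGATGNAA, searched on both strands with N as any base, was found in 7 of 16 cytosolic promoters (Aars, Cars, Nars, Tars, Yars, Iars and Mars), in 0 of 16 mitochondrial ones and not in that of Kars. It occurred in 3.98% of all 33469 promoters in the table. A match describes the letters in this window and does not show a binding site. The windows below are written along the strand that carries the element, with the element in capitals. The windows lie at chr1:208225334-208225363 for Cars (cysteine), chr2:62114811-62114840 for Tars (threonine), chr5:146820190-146820212 for Yars (tyrosine), chr17:15193658-15193687 for Iars (isoleucine) and chr7:65023752-65023781 for Mars (methionine), all on the plus strand. That of Nars (asparagine) lies at chr18:60275778-60275807 on the minus strand.
Cars: tttccagaatcTGATGCAAccgcggcgccg
Nars: cctaggtgatcTGATGCAAcgcttcagtca
Tars: agctaaccagcTGATGCAAcgggacgccag
Yars: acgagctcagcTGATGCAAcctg
Iars: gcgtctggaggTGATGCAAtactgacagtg
Mars: ggagcccacgcTGATGCAAccggaacgggc

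The unit is FPKM, a fragment number divided by transcript length and library size, which allows levels of different genes to be set side by side within a library. Fragment numbers are not given, so no counting error can be stated. The tissue labels were checked on marker genes. Pyramidal neuron markers summed to 7.03 to 18.02 FPKM in WBC and 4479 to 6469 FPKM in CA1, although Fibcd1 was listed at 0 in all libraries. T cell markers summed to 683 to 1101 FPKM in WBC and 3.15 to 7.33 FPKM in CA1. Over all rows, CA1 TBI 1 and sham 1 stood apart from the other 6 CA1 libraries on the first principal component (-28.4 and -27.4, against 1.77 to 19.4), and WBC TBI 1 stood apart from the other WBC libraries (57.0, against 4.36 to 19.1 in TBI 2 to 4 and -32.9 to -13.3 in sham).

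All measured members were expressed above a mean of 1 FPKM and entered the tests. In WBC the most abundant was Qars, the glutamine enzyme, at a mean of 57.3 FPKM over the 8 libraries. It was followed by Sars (serine) at 44.5, Kars (lysine, dual) at 34.2, Nars at 31.5 and Farsa, the alpha subunit of the phenylalanine enzyme, at 25.6 FPKM. The lowest were Pars2 (mitochondrial proline enzyme) at 1.46 and Ears2 (mitochondrial glutamate enzyme) at 1.64 FPKM. In CA1 the order began with Sars at 93.8 FPKM, above every other member in all 8 libraries. Nars at 66.2 and Aars at 61.9 FPKM came next, and their ranges over libraries (59.8 to 70.8 and 56.9 to 67.2 FPKM) overlapped. Gars (glycine, dual), Kars and Yars followed at 46.4, 35.2 and 34.9 FPKM. At the low end of CA1 stood Wars2 (mitochondrial tryptophan enzyme) at 2.29, Ears2 at 2.51 and Pars2 at 2.78 FPKM. Wars2 and Pars2 each had another CA1 row, with means of 2.04 and 0.895 FPKM, which was not added. Their places at the low end therefore hold only for the row used. Fars2 (mitochondrial phenylalanine enzyme) had another CA1 row as well, with a mean of 2.07 FPKM beside 22.5 FPKM in the row used. Its CA1 values below rest on the row used alone.

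Cytosolic transcripts were more abundant than mitochondrial ones in both tissues. The median member mean was 15.2 FPKM for 18 cytosolic and 4.05 FPKM for 14 mitochondrial enzymes in WBC, and 23.6 FPKM for 18 cytosolic and 4.40 FPKM for 13 mitochondrial enzymes in CA1. The classes overlapped at their edges. Tars2, the mitochondrial threonine enzyme, reached 19.6 FPKM in WBC, above its cytosolic counterpart Tars at 10.8 FPKM. Yars2 (tyrosine) and Fars2 (phenylalanine) reached 25.9 and 22.5 FPKM in CA1, while the lowest cytosolic enzymes were Vars (valine) at 12.0 FPKM in CA1 and Cars at 4.50 FPKM in WBC. Mitochondrial members had the larger median coefficient of variation between libraries of a group, 12.5% in WBC and 9.67% in CA1. For cytosolic members it was 8.996% in WBC and 5.27% in CA1. The part of the lower level of mitochondrial members in this was not tested. Their WBC values ran from 2.43% for the abundant Tars2, the lowest of all members, to 27.3% for Yars2. In CA1 the highest were Pars2 at 41.4% and Yars2 at 25.5%, for which 2 libraries lay low.

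**Figure D1:**
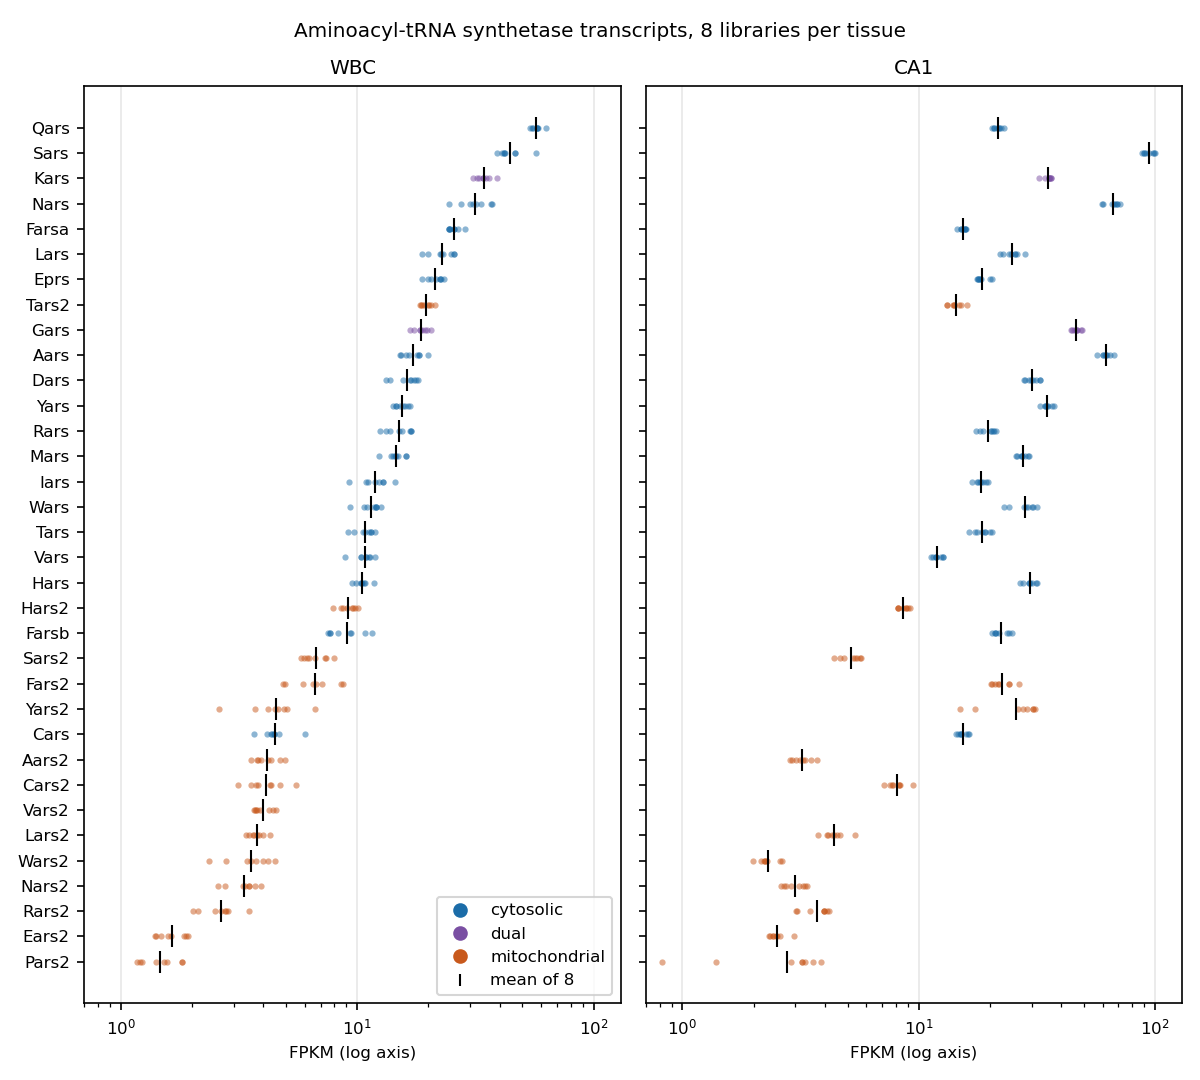
Levels of each synthetase in FPKM (log axis) in the 8 WBC and the 8 CA1 libraries, each point 1 library and each bar the mean, coloured by compartment and ordered by the WBC mean. Qars leads in WBC at 57.3 FPKM and Sars in CA1 at 93.8 FPKM, and 2 of the CA1 libraries lie low for Pars2 and Yars2.

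The gap between the classes was measured within each library as the median log2(FPKM + 0.5) of the cytosolic members minus that of the mitochondrial and dual members. It was 1.65 ± 0.06 in WBC TBI and 1.80 ± 0.17 in WBC sham (SD, n = 4 each), where the libraries ran from 1.57 to 1.69 and from 1.55 to 1.94. In CA1 it was 2.03 ± 0.07 in TBI and 2.15 ± 0.20 in sham (SD, n = 4 each), with libraries from 1.97 to 2.12 and from 1.93 to 2.34. TBI and sham libraries overlapped in both tissues.

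The 2 tables were normalized separately, so tissues were compared only within libraries, by each gene's percentile among the 7639 genes tested in both. Of 33 members, 7 lay higher in all 8 WBC libraries than in all 8 CA1 libraries, where 36.4% of all genes did so. Another 16 lay lower in all WBC libraries, where 38.3% of all genes did so, and 10 overlapped. Cytosolic members gave 3 higher and 11 lower, mitochondrial and dual members 4 higher and 5 lower.

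The members that lay higher in WBC were Qars, Farsa, Eprs (the joint glutamate and proline enzyme), Tars2, Wars2, Sars2 (serine) and Aars2 (alanine). For Wars2, and for Fars2 below, the CA1 percentile rests on 1 of 2 CA1 rows. Qars had a median percentile of 88.3 in WBC and 64.1 in CA1, and Farsa had 72.0 in WBC and 52.6 in CA1. Its partner subunit Farsb went the other way, with 39.1 in WBC and 64.1 in CA1. The lowest relative to CA1 was Yars2, with a median percentile of 20.2 in WBC and 71.7 in CA1. Fars2 stood at 29.8 in WBC and 64.4 in CA1, Cars at 19.6 in WBC and 52.6 in CA1, and Aars at 61.7 in WBC and 87.5 in CA1.

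For 10 amino acids both a cytosolic and a mitochondrial member stood in both tables, and 7 of these 10 ratios were lower in every WBC library than in every CA1 library. The share among other gene pairs was not computed, and single genes already lay apart between the tissues in 36.4% (higher in WBC) and 38.3% (lower) of cases. The CA1 ratio of Wars/Wars2, among the 7, rests on 1 of the 2 Wars2 rows. The Aars/Aars2 ratio had a median of 4.35 in WBC (3.06 to 5.30) and 19.7 in CA1 (17.2 to 21.2). Nars/Nars2 had a median of 9.53 in WBC and 22.0 in CA1, and Hars/Hars2, the histidine pair, 1.16 in WBC and 3.42 in CA1. The tyrosine pair was the exception, with Yars/Yars2 at a median of 3.28 in WBC (2.51 to 6.12) and 1.24 in CA1 (1.12 to 2.18). The leucine and arginine pairs overlapped between tissues. All 10 CA1 ratios were above 1 in every library. In WBC the Tars/Tars2 ratio was under 1 in every library, and Cars/Cars2 lay on both sides of 1.

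**Figure D2:**
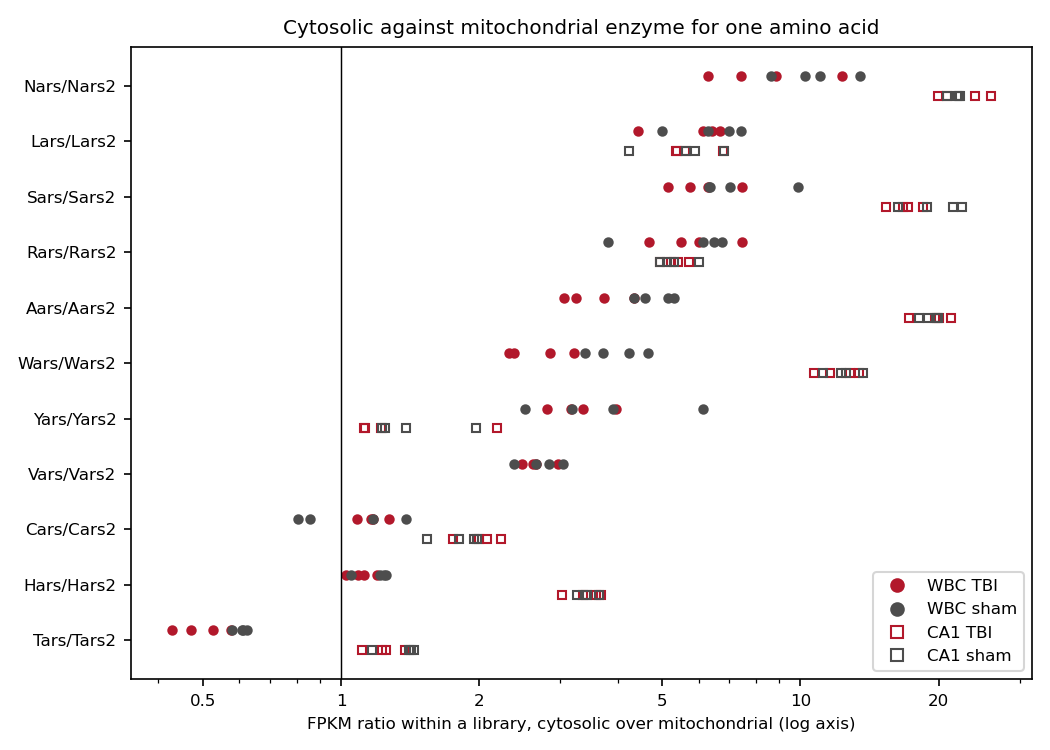
Ratio of the cytosolic to the mitochondrial enzyme for the same amino acid within each library (FPKM ratio, log axis), with circles for WBC and squares for CA1, red for TBI and grey for sham. Most WBC ratios lie left of the CA1 ones, Yars/Yars2 lies right of them, and Tars/Tars2 lies left of 1 in all 8 WBC libraries.

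TBI was set against sham in WBC with limma on log2(FPKM + 0.5), which also gives the differences below. After Benjamini-Hochberg adjustment over all rows, 0 of 34 members passed 0.05, where 0% of the 13413 rows tested did. At an unadjusted p under 0.05 there were 6 of 34, no larger a share than the 20.3% of all rows. This count was 2 (Aars and Wars2) when WBC sham 3, TBI 1 or TBI 4 was left out. The differences split evenly, 17 higher and 17 lower in TBI (49.6% of all rows were higher), with a median of -0.00 log2 beside -0.00 over all rows, and ran from -0.39 to 0.40. After quantile normalization 24 were higher and 10 lower, with a median of 0.06 log2 beside 0.05 over all rows. Without WBC sham 3 there were 22 higher and 12 lower, with a median of 0.04 log2 beside 0.01 over all rows. Nothing in the labels says how the libraries of a group were replicated, so each p-value reflects their spread alone, which may be technical.

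The 18 cytosolic members had 7 higher and 11 lower values with a median difference of -0.04 log2, but after quantile normalization 12 were higher and 6 lower, with a median of 0.05 beside 0.05 for all rows. The 14 mitochondrial members had 10 higher and 4 lower values with a median of 0.08 log2. After quantile normalization they also had 10 and 4, but with a median of 0.06 beside 0.05 for all rows. The groups did not overlap in 5 of 34 members, beside 14.2% of rows. In 3 of them, all mitochondrial, the TBI libraries lay above the sham libraries, where 5.61% of rows did so. In the other 2, both cytosolic, they lay below, where 8.63% of rows did so.

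Aars, the alanine enzyme, had the smallest p in WBC. Libraries 1 to 4 read 15.1, 16.1, 16.6 and 15.3 FPKM in TBI, against 17.98, 18.3, 19.9 and 18.2 FPKM in sham. Every TBI library lay below every sham library, and the difference was -0.23 ± 0.07 log2 (SE; limma adjusted p = 0.144).

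Nars, the asparagine enzyme, read 24.5, 30.8, 31.8 and 27.4 FPKM in TBI, against 30.1, 37.1, 36.8 and 33.4 FPKM in sham. TBI 2 and 3 lay above the lowest sham library, so the groups overlapped, with a difference of -0.26 ± 0.11 log2 (SE; limma adjusted p = 0.221). After quantile normalization the Nars difference was -0.14 log2 (limma adjusted p = 0.437). Yars, the tyrosine enzyme, read 14.6, 14.6, 14.2 and 15.1 FPKM in TBI, against 15.9, 15.6, 16.6 and 16.5 FPKM in sham. The groups did not overlap and the difference was -0.14 ± 0.06 log2 (SE; limma adjusted p = 0.238).

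Wars2, the mitochondrial tryptophan enzyme, read 4.01, 4.20, 4.49 and 3.74 FPKM in TBI, against 2.35, 3.40, 2.78 and 3.53 FPKM in sham. All TBI libraries lay above all sham libraries, and the difference was 0.40 ± 0.13 log2 (SE; limma adjusted p = 0.161). Hars2, the mitochondrial histidine enzyme, read 10.1, 9.59, 9.51 and 9.83 FPKM in TBI, against 8.54, 9.01, 7.91 and 8.67 FPKM in sham. Here too the TBI libraries lay above, by 0.18 ± 0.07 log2 (SE; limma adjusted p = 0.192).

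Tars2 completed the 3 mitochondrial members whose groups did not overlap. It read 20.6, 19.9, 20.1 and 21.3 FPKM in TBI, against 18.7, 18.7, 19.1 and 18.3 FPKM in sham. The difference was 0.13 ± 0.06 log2 (SE; limma adjusted p = 0.265, unadjusted 0.0601), and 0.19 after quantile normalization (limma adjusted p = 0.174).

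Fars2, the mitochondrial phenylalanine enzyme, lay in the other direction. It read 4.86, 5.89, 7.09 and 4.97 FPKM in TBI, against 6.51, 8.52, 8.70 and 6.70 FPKM in sham. TBI 3 lay within the sham range, and the difference was -0.39 ± 0.15 log2 (SE; limma adjusted p = 0.194).

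**Figure D3:**
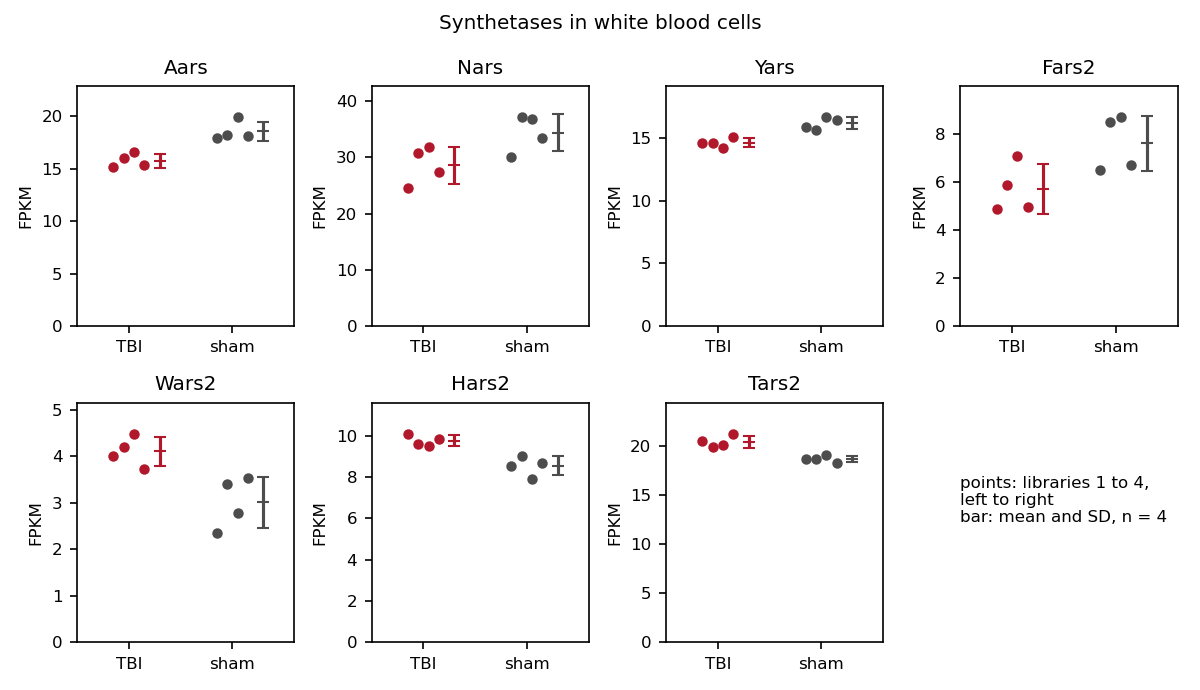
FPKM of 7 synthetases in the WBC libraries, TBI left in red and sham right in grey, each point 1 library and each bar the mean with its SD (n = 4). Aars and Yars lie lower in all TBI libraries, Wars2, Hars2 and Tars2 higher, and Nars and Fars2 overlap.

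Within WBC libraries, 2 of the 11 pair ratios did not overlap between TBI and sham. Both contain Tars2 or Wars2, whose values are given above, and the share among other gene pairs was not computed. Tars/Tars2 was 0.50 ± 0.06 in TBI and 0.61 ± 0.02 in sham (SD, n = 4 each), with narrowly separated libraries, 0.428 to 0.575 in TBI and 0.577 to 0.625 in sham. Wars/Wars2 was 2.69 ± 0.42 in TBI and 4.004 ± 0.56 in sham (SD, n = 4 each). Both lay lower in all 4 TBI libraries, and Wars itself overlapped, at 10.99 ± 1.30 FPKM in TBI and 11.9 ± 0.69 FPKM in sham.

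Marker sums of other blood cells are given beside these values, and none of their genes passed limma's adjusted threshold. Erythroid markers, 13 of 14 measured and none at 0 in all libraries, summed to 4528 to 11025 FPKM in TBI and 10869 to 17559 FPKM in sham, and all 12 tested lay lower in TBI. Platelet markers, 8 of 12 measured, summed to 2426 to 7231 FPKM in TBI and 7776 to 10579 FPKM in sham. Natural killer cell markers, 6 of 6 measured, summed to 230 to 410 FPKM in TBI and 200 to 256 FPKM in sham. T cell markers had 7 higher and 0 lower in TBI, B cell markers 0 and 6, neutrophil markers 2 and 5, and monocyte markers 3 and 3. The part of these cells in the synthetase values was not tested, and in bulk RNA fewer cells of a type and less RNA per cell cannot be told apart.

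In CA1, 0 of 33 members passed limma's adjusted threshold, where 0.00683% of 14637 rows did, and 0 of 33 had an unadjusted p under 0.05, where 5.14% of rows did. Without CA1 sham 1 there were 2 with such a p (Farsb and Sars), and without TBI 4 there was 1 (Sars). In no member did all TBI libraries lie on one side of all sham libraries, where 2.88% of rows did. There were 10 higher and 23 lower values with a median of -0.03 log2, beside -0.01 over all rows, of which 46.7% were higher. Leaving out CA1 TBI 1 alone gave 17 higher and 16 lower, with a median of 0.00 log2. Without sham 1 alone the split was 7 higher and 26 lower, and without both libraries it was again 10 higher and 23 lower. The median without both was -0.016 log2, beside -0.015 over all rows. The lowest difference, -0.27 log2 for Pars2, was 0.09 without TBI 1 alone, but sham 1 was low for Pars2 too. TBI 2 to 4 read 2.87, 3.21 and 3.20 FPKM, below sham 2 to 4 at 3.56, 3.32 and 3.87 FPKM.

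Markers of pyramidal neurons, astrocytes and endothelial cells in CA1 lay lower in TBI. All 7 pyramidal neuron markers tested did so, with a median of -0.18 log2 and sums of 4772 to 5232 FPKM in TBI and 4479 to 6469 FPKM in sham. The same held for 6 of 6 astrocyte markers, with a median of -0.17 log2 and sums of 1304 to 1425 FPKM in TBI and 1322 to 1761 FPKM in sham. It also held for 6 of 6 endothelial markers, with a median of -0.24 log2 and sums of 72.1 to 83.8 FPKM in TBI and 72.5 to 125 FPKM in sham. Other lists were mixed: oligodendrocyte markers had 3 higher and 3 lower, monocyte markers 3 higher and 2 lower, and microglia markers 1 higher and 5 lower. Dentate gyrus markers had 0 higher and 2 lower. Choroid plexus markers had 6 higher and 1 lower, with sums of 222 to 2849 FPKM in TBI and 65.5 to 1420 FPKM in sham. Of all these markers none passed limma's adjusted threshold, and their part in the synthetase values was not tested.

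The smallest p in CA1 belonged to Farsb and Sars. Farsb read 21.9, 20.4, 21.3 and 21.0 FPKM in TBI, against 20.9, 24.2, 24.8 and 23.6 FPKM in sham. Sham 1 alone lay among the TBI libraries, and the difference was -0.14 ± 0.06 log2 (SE; limma adjusted p = 0.891). Sars read 89.8, 87.7, 89.4 and 94.0 FPKM in TBI, against 91.8, 100.1, 99.3 and 98.2 FPKM in sham, a difference of -0.11 ± 0.05 log2 (SE; limma adjusted p = 0.891). Here too sham 1 lay within the TBI range.

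**Figure D4:**
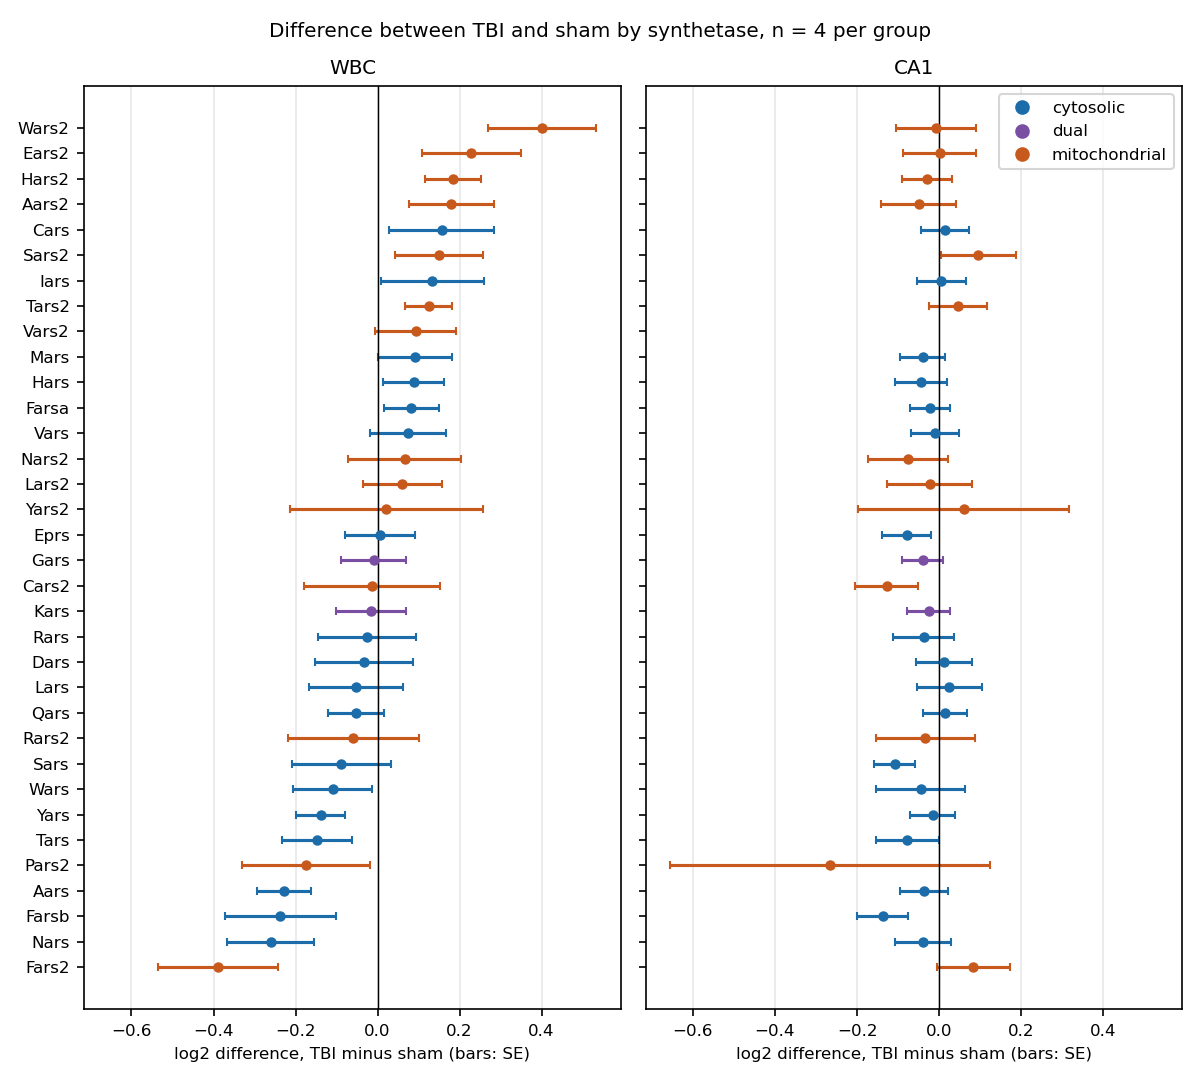
Difference between TBI and sham for each synthetase on the log2(FPKM + 0.5) scale in WBC and CA1 (bars are standard errors, n = 4 per group), coloured by compartment and ordered by the WBC value. WBC values run from -0.39 to 0.40, CA1 values from -0.27 to 0.10, and none passed the adjusted threshold.

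CA1 TBI 1 and sham 1, the libraries that stood apart over all rows, also stood apart for the family. In 14 of 33 members both lay below the other 6 libraries, where 10.5% of rows did so, and in 1 member (Vars) both lay above, where 7.23% of rows did so. Yars2 read 14.9 FPKM in TBI 1 and 17.4 FPKM in sham 1, against 26.3 to 31.0 FPKM in the other 6. Pars2 read 0.823 FPKM in TBI 1 and 1.39 FPKM in sham 1, against 2.87 to 3.87 FPKM in the others. The other members among the 14, cytosolic, dual and mitochondrial, were closer. The cytosolic Wars read 23.1 FPKM in TBI 1 and 24.1 FPKM in sham 1, against 27.9 to 31.6 FPKM. The mitochondrial Lars2 (leucine) read 4.09 FPKM in TBI 1 and 3.74 FPKM in sham 1, against 4.14 to 5.38 FPKM. Without these libraries, 3 members had an unadjusted limma p under 0.05 and none passed adjustment, with differences of 0.15 log2 for Yars2 (adjusted p = 0.320), -0.13 for Sars (adjusted p = 0.345) and -0.20 for Farsb (adjusted p = 0.260).

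**Figure D5:**
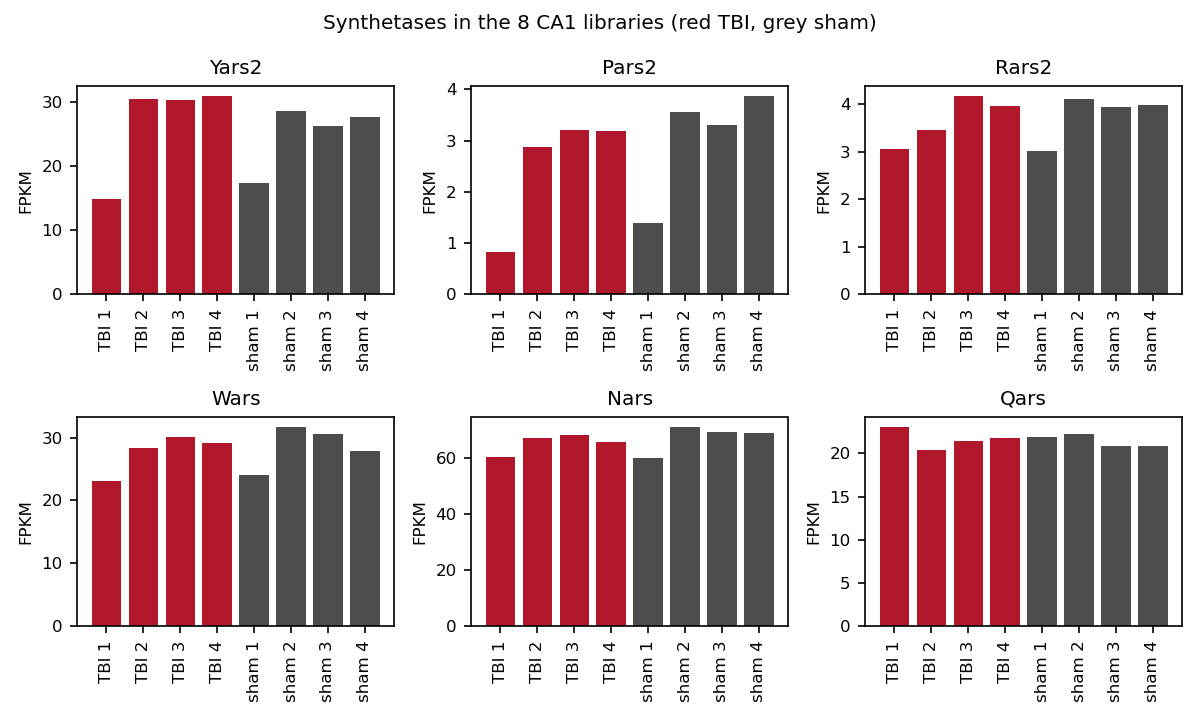
FPKM of 6 synthetases in each CA1 library, TBI left in red and sham right in grey. TBI 1 and sham 1 are the lowest for Yars2, Pars2, Rars2, Wars and Nars, and not for Qars.

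The effect of TBI in WBC was set against that in CA1 by an interaction term in limma over the 7639 shared genes. After adjustment 0 of 33 members passed, where 0.419% of genes did, and 4 had an unadjusted p under 0.05, where 19.8% of genes did. These were Fars2 (-0.47 ± 0.17 log2, SE; adjusted p = 0.148), Wars2 (0.41 ± 0.16; adjusted p = 0.165), Hars2 (0.21 ± 0.08; adjusted p = 0.180) and Aars (-0.19 ± 0.08; adjusted p = 0.220). For Fars2, the WBC difference was -0.39 log2, against 0.08 in CA1. With the rows of a symbol summed, the Wars2 interaction was 0.53 log2 (limma adjusted p = 0.117). That of Fars2 was then -0.48 log2 (limma adjusted p = 0.146).

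Members with the promoter element were split in WBC. Aars, Nars, Yars and Tars were lower in TBI and Cars, Iars and Mars higher, with a median of -0.14 log2, while the 9 cytosolic members whose promoter lacked the element had 4 higher and 5 lower with a median of -0.05. In CA1 the element group had 2 higher and 5 lower with a median of -0.04 log2, and the other 9 had 2 higher and 7 lower, also with a median of -0.04. All 7 are enzymes that textbooks list as responsive to ATF4, so the element and that list are not separate evidence. Eprs, Lars, Sars and Wars, among the 9 without the element, are on that list too. The listed 12 had 4 higher and 8 lower in WBC with a median of -0.07 log2, and 3 higher and 9 lower in CA1 with a median of -0.04.

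Of 11 partners of the enzymes, 9 were measured in WBC and 8 in CA1. In WBC, 4 were higher and 5 lower, and none was called by limma. An unadjusted limma p under 0.05 was found for 2, both lower, where 12.5% of rows were so. After quantile or median-ratio normalization there was 1 such p. The groups did not overlap in 3, all lower, where 8.63% of rows were so. In CA1 4 were higher and 4 lower, none with an unadjusted p under 0.05. Eef1e1, a scaffold of the multisynthetase complex, read 42.9, 93.7, 97.7 and 65.4 FPKM in WBC TBI, against 134.8, 188.2, 200.4 and 119.4 FPKM in WBC sham. The groups did not overlap and the difference was -1.13 ± 0.28 log2 (SE; limma adjusted p = 0.132). Aimp2, another scaffold, averaged 12.9 ± 1.83 FPKM in TBI and 15.3 ± 0.63 FPKM in sham (SD, n = 4 each), without overlap, a difference of -0.25 log2 (limma adjusted p = 0.243), and -0.15 without WBC TBI 1 (limma adjusted p = 0.373). Aimp1 overlapped, at 24.4 ± 3.70 FPKM in TBI and 26.7 ± 2.19 FPKM in sham. Xpot, which exports tRNA from the nucleus, averaged 4.64 ± 0.23 FPKM in TBI and 5.05 ± 0.08 FPKM in sham, also without overlap (limma adjusted p = 0.432).

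Of 24 amino acid response genes, the kinases, factors and targets around ATF4, 20 were tested in WBC, with 4 higher and 16 lower in TBI (7 and 13 after quantile normalization) and a median of -0.18 log2. An unadjusted limma p under 0.05 was found for 5, all lower, where 12.5% of rows were so, and none passed adjustment. Slc7a5 and Slc3a2, which together form a carrier of large neutral amino acids, averaged 17.4 ± 3.60 and 106 ± 28.3 FPKM in TBI, against 33.1 ± 1.81 and 214 ± 43.6 FPKM in sham (SD, n = 4 each). Their differences were -0.93 and -1.03 log2 (limma adjusted p = 0.127 for both), and neither overlapped between groups. Eif2ak1, the heme-regulated eIF2 kinase known for its role in red cell precursors, averaged 47.6 ± 13.9 FPKM in TBI and 94.5 ± 15.1 FPKM in sham, a difference of -1.02 log2 (limma adjusted p = 0.127), beside the lower erythroid sums above. Ppp1r15a, which directs eIF2 dephosphorylation, and Mthfd2, a mitochondrial folate enzyme, differed by -0.89 and -0.34 log2 (limma adjusted p = 0.142 and 0.209). Atf4 itself averaged 209 ± 24.1 FPKM in TBI and 245 ± 11.7 FPKM in sham, with no overlap and a difference of -0.23 log2 (limma adjusted p = 0.264). This direction depended on the scaling: after quantile normalization the Atf4 difference was 0.14 log2 (limma adjusted p = 0.392), and without WBC TBI 1 it was -0.15 (limma adjusted p = 0.379). In CA1, 22 were tested, with 6 higher and 16 lower, a median of -0.04 log2 and no unadjusted limma p under 0.05. Without CA1 sham 1 there were 2 such p-values, and without CA1 sham 4 the split was 11 higher and 11 lower. In the interaction, Slc7a5 alone of the list passed the adjusted threshold, where 0.419% of all genes did. The Slc7a5 interaction was -0.85 ± 0.16 log2 (SE, limma adjusted p = 0.0387), with differences of -0.93 log2 in WBC and -0.08 in CA1. Its adjusted limma p ran from 0.00626 to 0.105 over 30 alternatives and was past 0.05 in 18 of them. The call was lost with no filter on low values, without CA1 sham 1 and TBI 1 together, and without CA1 sham 2, 3 or 4, any 1 CA1 TBI library, WBC sham 2 or 3, or WBC TBI 4. Slc3a2 (-1.02 log2, limma adjusted p = 0.0707) and Eif2ak1 (-0.92 log2, limma adjusted p = 0.0754) did not pass in the main fit. They passed in 6 and 4 of the 30 alternatives.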

How the data were processed

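FPKM values, as deposited by the authors in 1 table per tissue, were used; per the submitters' processing notes TopHat, TopHat2, Bowtie, Bowtie2, Cufflinks and Cuffdiff were applied with the rat build rn5. Their versions, the annotation and the scaling option were not given in the sources used here. Low values gave no sharp spacing from which fragment numbers could be recovered. Rows with a mean of 1 FPKM or more over the 8 libraries of a tissue and with the status OK throughout entered the tests (13413 in WBC, 14637 in CA1). Each tissue was fitted with limma 3.58.1 in R 4.3.3 on log2(FPKM + 0.5), with a variance trend, 2-sided, adjusted by Benjamini-Hochberg; the tool was tested on simulated data. Fold changes on this scale understate those of low genes. Members were named gene by gene at an unadjusted p under 0.05 or where the groups did not overlap. Farsb and Sars in CA1, and Aimp1 and Wars in WBC, were added after their values were seen. The members and lists were chosen with earlier results of these data known. Alternatives were pseudocounts, filters, normalizations, variance settings, sample weights, a replicate block, row status, summed rows, the placing of the dual enzymes and omitted libraries. Percentiles, ratios and promoter counts were computed in Python 3.11.15 with pandas 2.3.3. The promoter sequence of Aars is not reported here.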

Additional observations from a re-analysis of the deposited data

Results flagged for a closer look

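In 9 of 134 groups of 4 libraries, 1 library lay far from the other 3 for a member, where chance gives about 1 in 20. In CA1 TBI 1 there were 3: Yars2 at 14.9 FPKM (others 30.4 to 31.0), Pars2 at 0.823 FPKM (others 2.87 to 3.21) and Kars at 32.4 FPKM (others 35.6 to 35.9). In CA1 sham 1 there was 1, Rars2 at 3.01 FPKM (others 3.96 to 4.11). In CA1 sham 2, Hars stood at 31.3 FPKM (others 29.3 to 29.6) and Ears2 at 2.96 FPKM (others 2.32 to 2.41). In WBC sham 3, Aars stood high at 19.9 FPKM (others 18 to 18.3) and Cars low at 3.65 FPKM (others 4.32 to 4.45). In WBC sham 2, Farsa stood at 25.7 FPKM (others 24.5 to 24.6). Without WBC sham 3 the Aars difference was -0.20 log2 (limma adjusted p = 0.262).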

How the results depend on the processing

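No member passed limma's adjusted threshold under any alternative within either tissue, and Fars2 alone did in the interaction, with the block described below. The differences of the members named for WBC and for the interaction kept their sign under every alternative in which they could be computed. The number of CA1 members at an unadjusted p under 0.05 was 2 with no filter, quantile normalization or sample weights, 1 with median-ratio normalization, 3 without sham 1 and TBI 1, and 0 to 2 when leaving out 1 library at a time. In WBC that number was 2 to 6 when leaving out 1 library at a time. The gap between classes depended on the genes included: with a minimum mean of 5 FPKM it was 0.24 in WBC and 0.44 in CA1, and with Gars and Kars counted as cytosolic it was 1.87 in WBC and 2.44 in CA1.

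Samples of equal number do not pair by the labels, and their deviations correlated only at 0.02 to 0.24 (CA1) and -0.01 to 0.15 (WBC) between TBI and sham. Between the tissues of a condition the correlations were 0.07 to 0.21. In TBI 8 of 8 libraries correlated best with their own number, and in sham also 8 of 8, a hint from the data and not from the design. With a replicate block, 1 CA1 member (Pars2) had an unadjusted p under 0.05, and 1 member, Fars2, passed in the interaction (limma adjusted p = 0.0432, range over alternatives 0.0432 to 0.257). That fit called 214 of 7639 genes (2.8%), so 1 of 33 members is near the share of all genes. Groups of 4 libraries, unknown fragment numbers and the 3 unmeasured or jointly measured members limit these results.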
